A study of Rattus norvegicus with 8 samples.

Results

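The 10 genes described here encode the machinery that divides and joins mitochondria (Dnm1l, Fis1, Mfn1, Mfn2 and Opa1), proteins that shape the inner-membrane folds called cristae (Apool and Immt) and factors that act on the mitochondrial genome and its transcripts (Tfam, Tfb1m and Tfb2m). They are 10 of 15037 genes named on the array, and each was read by 1 probe set, so no choice between probe sets was needed. The genes were selected from log2 intensity over the 4 groups of all 8 arrays, when the difference of Apool between space and ground and those of Tfb2m and Dnm1l between treated and untreated cells were already known. Their levels and differences are therefore given as a description, and how many of them passed a threshold is set beside the share of all probe sets that did, with nothing read from it.

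RNA came from H9c2 cells, a rat myoblast line derived from embryonic heart, in 4 groups. Cells kept aboard the International Space Station received 100 µg/ml of serum-coated nanoceria (cerium oxide nanoparticles, 2 arrays, replicates 1 and 2) or no nanoceria (1 array). Cells kept on the ground received the same nanoceria dose (3 arrays, replicates 1 to 3) or none (2 arrays, replicates 1 and 3). All groups shared the low-serum differentiation medium and fixation in RNAlater on day 10, and the ground run copied the flight's logged temperatures at a later time, so regime and culture run cannot be told apart. The sample records of all groups also share seeding at 35000 cells per cm2, an incubator at 37 °C, a pouch at 27 °C and a station day of 7. The series asked how nanoceria and gravity regime, alone or combined, changed gene expression in these muscle cells.

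Mitochondria form a network that is cut and rejoined continuously. The cytosolic GTPase encoded by Dnm1l is recruited to the outer membrane and constricts it, and Fis1 encodes an outer-membrane adaptor of the division machinery. The mitofusins Mfn1 and Mfn2 join outer membranes, and the dynamin-related Opa1 joins inner membranes and holds cristae tight. Immt, or mitofilin, is the core of the complex at cristae junctions, and Apool encodes a lipid-binding subunit of that complex. Tfam packages mitochondrial DNA and opens its promoters together with Tfb2m, while Tfb1m encodes a methyltransferase of mitochondrial ribosomal RNA. Myotubes depend on this network for their energy supply, and it is remodelled as myoblasts differentiate.

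Median intensity ran from 107.3 to 116.6 over the 8 arrays, each with 23188 probe sets, and no pair of arrays was identical. With so few arrays the precision was limited, and untreated cells in space had no replicate. In bulk RNA, fewer cells of a type and less RNA per cell cannot be told apart. Skeletal muscle markers (9 of 10 measured) had mean log2 intensities of 7.23 and 7.56 in nanoceria-treated cells in space, 7.56 in untreated cells in space, 7.75 to 8.13 in nanoceria-treated cells on ground and 6.44 and 7.22 in untreated cells on ground. Means of the macrophage list (5 of 5 measured) stayed within 4.83 to 5.08 and those of the endothelial list (5 of 5) within 4.80 to 5.32, while the fibroblast list (6 of 6) ran from 9.45 to 9.73 and the cardiomyocyte list (7 of 8) from 6.44 to 6.93. Arrays give no true zero and no detection call was available, so absence of any marker could not be established. Proliferation markers (13 of 14 measured) averaged 7.08 on ground untreated replicate 3, against 9.04 to 9.59 on the other 7 arrays. The mean of the 10 mitochondrial genes was 8.68 on ground untreated replicate 3 and 8.69 on ground untreated replicate 1, but single genes differed between these arrays, with Tfb1m at 6.08 and 7.00 and Mfn1 at 7.92 and 7.50. The part of cell state in the differences below was not tested.

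Apool showed the clearest separation of groups. Its log2 intensity was 7.76 and 7.81 in nanoceria-treated cells in space, 8.16 in untreated cells in space, 6.67, 6.83 and 6.75 in nanoceria-treated cells on ground, and 7.44 and 7.24 in untreated cells on ground. No pair of the 4 groups overlapped, and the order was untreated in space, treated in space, untreated on ground and treated on ground. The untreated space group was 1 array. The share of all probe sets with the 4 groups apart was not computed, so nothing is read from this separation. Over both treatments, space minus ground for Apool was 0.96 ± 0.12 (standard error, SE, as throughout), a 1.95-fold higher level. Within treated cells the same difference was 1.04 ± 0.15, and within untreated cells, where space had 1 array, it was 0.82 ± 0.20.

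Dnm1l, the division GTPase, varied most of the 10 genes, with a 4.60-fold range from its lowest to its highest array that was wider than the range of 97% of all probe sets. It read 10.05 and 9.53 in nanoceria-treated cells in space, 10.31 in untreated cells in space, 8.57, 9.35 and 8.11 in nanoceria-treated cells on ground, and 9.53 and 9.74 in untreated cells on ground. The 3 treated ground arrays were its lowest, whereas treated cells in space overlapped untreated cells on ground. Space minus ground was 0.96 ± 0.28 over both treatments and 1.12 ± 0.36 in treated cells. The spread among treated ground arrays (standard deviation, SD, 0.63, n = 3) was wider than that of Apool in the same cells (SD 0.08, n = 3).

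Tfb2m, a factor that mitochondrial RNA polymerase needs to start transcription, had 7.83 and 8.24 in nanoceria-treated cells in space, 8.34 in untreated cells in space, 7.39, 7.64 and 7.34 in nanoceria-treated cells on ground, and 8.23 and 8.40 in untreated cells on ground. Its treated ground arrays lay below every other array. In turn, untreated cells in space lay inside the range of untreated cells on ground, and treated cells in space overlapped untreated cells on ground at one end. The nanoceria difference on ground was -0.86 ± 0.19, a level 0.55 times that of untreated cells, against -0.30 ± 0.25 in space, where the untreated side was 1 array.

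Mfn1, an outer-membrane fusion gene, followed a shallower version of this pattern. It stood at 7.69 and 7.64 in nanoceria-treated cells in space, 7.67 in untreated cells in space, 7.25, 7.39 and 7.35 in nanoceria-treated cells on ground, and 7.50 and 7.92 in untreated cells on ground. The treated ground arrays were again its 3 lowest. The ground difference of -0.38 ± 0.18 came to -0.17 without ground untreated replicate 3 and to -0.60 without ground untreated replicate 1.

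Fis1, the adaptor gene, ran the other way. Its log2 intensity was 11.00 and 11.28 in nanoceria-treated cells in space, 11.17 in untreated cells in space, 11.83, 11.43 and 11.67 in nanoceria-treated cells on ground, and 11.23 and 11.24 in untreated cells on ground. Every treated ground array was above every other array, and the untreated arrays of both regimes lay inside the range of treated cells in space. Nanoceria minus untreated on ground was 0.41 ± 0.18, and space minus ground in treated cells was -0.50 ± 0.18.

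**Figure D1:**
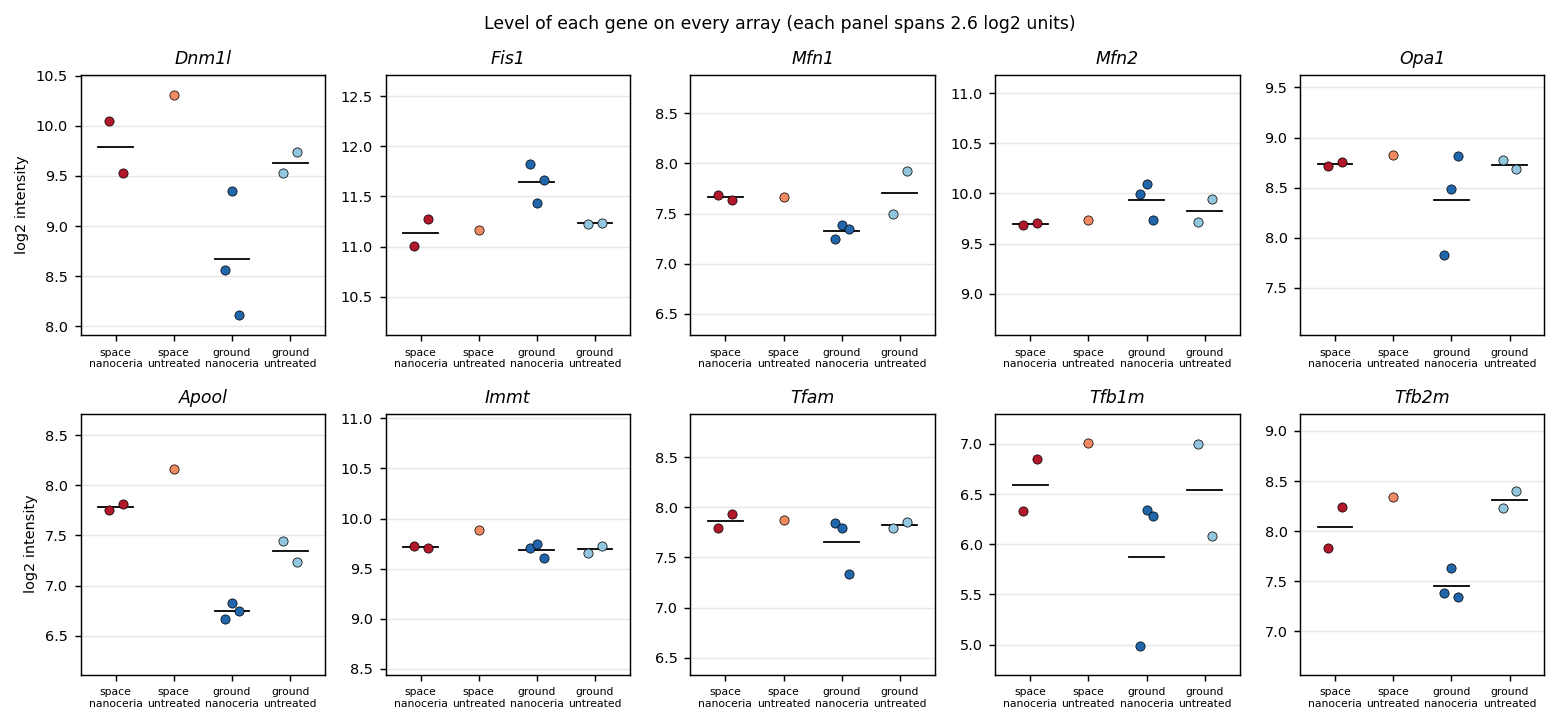
Log2 intensity (vertical axis, each panel spanning the same number of log2 units) of the 10 genes in the 4 groups, with 1 point per array and a bar at the mean of groups with more than 1 array. Treated ground arrays are the lowest points of Dnm1l, Mfn1, Apool and Tfb2m and the highest points of Fis1, while Immt is nearly level.

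Promoter windows are shown for these 5 genes because all of them set the treated ground arrays apart, 4 downward and 1 upward. The windows come from RefSeq on build GRCr8 and hold 250 bases before and 50 after an annotated start. They lie at chrX:81569710-81570009 (plus strand) for Apool, chr11:98085147-98085446 (plus strand) for Dnm1l, chr13:93828545-93828844 (minus strand) for Tfb2m, chr2:117241508-117241807 (plus strand) for Mfn1 and chr12:25359994-25360293 (minus strand) for Fis1, with the window listed first printed for Apool and Fis1, which have 2 each. Capitals mark TGCGCA (core of the NRF-1 site), CCGGAAG (core of the GABP site), GGGCGG (SP box) and CCAAT, searched on both strands, and adjoining or overlapping SP boxes run together.
Apool: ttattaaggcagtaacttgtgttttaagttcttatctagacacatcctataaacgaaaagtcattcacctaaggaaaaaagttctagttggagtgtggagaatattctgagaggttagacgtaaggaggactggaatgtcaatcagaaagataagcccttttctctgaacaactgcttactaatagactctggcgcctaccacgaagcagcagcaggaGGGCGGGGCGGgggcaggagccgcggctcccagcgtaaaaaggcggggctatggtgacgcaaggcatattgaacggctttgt
Dnm1l: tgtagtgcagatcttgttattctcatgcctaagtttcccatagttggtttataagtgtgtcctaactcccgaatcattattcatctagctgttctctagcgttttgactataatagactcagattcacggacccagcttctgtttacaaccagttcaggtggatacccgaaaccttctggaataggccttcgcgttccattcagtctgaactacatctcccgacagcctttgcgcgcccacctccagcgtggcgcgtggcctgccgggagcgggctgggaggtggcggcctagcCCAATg
Tfb2m: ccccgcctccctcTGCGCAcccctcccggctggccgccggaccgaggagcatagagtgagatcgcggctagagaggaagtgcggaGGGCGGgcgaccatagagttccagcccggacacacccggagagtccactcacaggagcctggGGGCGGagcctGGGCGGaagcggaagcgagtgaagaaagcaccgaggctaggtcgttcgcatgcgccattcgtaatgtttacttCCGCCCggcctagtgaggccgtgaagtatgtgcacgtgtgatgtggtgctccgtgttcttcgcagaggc
Mfn1: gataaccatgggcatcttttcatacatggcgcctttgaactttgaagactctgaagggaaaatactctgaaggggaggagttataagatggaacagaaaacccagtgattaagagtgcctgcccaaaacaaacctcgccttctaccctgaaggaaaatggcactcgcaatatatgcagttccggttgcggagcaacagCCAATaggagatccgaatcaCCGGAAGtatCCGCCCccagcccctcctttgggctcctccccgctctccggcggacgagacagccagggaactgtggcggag
Fis1: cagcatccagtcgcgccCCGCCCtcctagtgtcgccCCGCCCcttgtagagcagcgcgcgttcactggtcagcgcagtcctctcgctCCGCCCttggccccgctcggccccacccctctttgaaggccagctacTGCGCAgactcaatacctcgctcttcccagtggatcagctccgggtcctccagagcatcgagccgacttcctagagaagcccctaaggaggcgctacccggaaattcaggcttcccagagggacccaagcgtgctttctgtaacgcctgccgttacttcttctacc

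NRF-1 and GABP are nuclear factors known in human cells for driving genes of mitochondrial biogenesis. The NRF-1 letters were found in the Tfb2m window and in the printed Fis1 window, and in 7.24% of all 33469 windows. The GABP letters were found in the Mfn1 and Tfam windows and in the second Fis1 window, against 8.75% of all windows. SP boxes occurred 4 times for Tfb2m, 3 times in the printed Fis1 window and 2 times in the second, 2 times each for Apool, Opa1 and Tfam and 1 time for Mfn1, and 33.1% of all windows held at least 1. The 2 Apool windows overlap and hold the same SP boxes. An SP box holds only G and C, and these bases made up 47% (printed Apool window) to 67.7% (Tfam) of the windows here. The median over all windows was 51.7%, so nothing is read from the SP counts. A CCAAT was present for Dnm1l, Mfn1, Opa1 and Tfb1m and in the second Fis1 window, and in 37.5% of all windows. No motif of the 4 searched was in the windows of all 4 genes that were low in treated ground cells. Of the 10 genes, 8 had a window, and Mfn2 and Immt are named only.

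The remaining 5 genes separated the groups less. Tfb1m, the ribosomal RNA methyltransferase gene, read 6.34 and 6.85 in nanoceria-treated cells in space, 7.01 in untreated cells in space, 4.99, 6.35 and 6.28 in nanoceria-treated cells on ground, and 7.00 and 6.08 in untreated cells on ground. Its range was 4.07-fold, wider than that of 95.9% of probe sets, but the 3 groups with replicates overlapped and ground nanoceria replicate 1 alone held the low end. Space minus ground for Tfb1m was 0.63 ± 0.35 over both treatments, and 0.36 without that array. Its ground nanoceria difference, -0.67 ± 0.46, came to -0.21 without ground untreated replicate 1 and to -1.12 without ground untreated replicate 3.

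Opa1, the inner-membrane fusion gene, had 8.72 and 8.75 in nanoceria-treated cells in space, 8.83 in untreated cells in space, 7.83, 8.49 and 8.82 in nanoceria-treated cells on ground, and 8.77 and 8.69 in untreated cells on ground. A single array, ground nanoceria replicate 1, again made most of its 2.00-fold range. Without it, the ground nanoceria difference of -0.35 ± 0.28 came to -0.08.

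Tfam, the DNA-packaging factor gene, stayed between 7.79 and 7.93 on 7 arrays and was 7.33 on ground nanoceria replicate 3. Its nanoceria difference on ground was -0.17 ± 0.19, and -0.01 without that array. Mfn2, the second mitofusin, had 9.68 and 9.71 in nanoceria-treated cells in space, 9.73 in untreated cells in space, 9.99, 10.09 and 9.73 in nanoceria-treated cells on ground, and 9.71 and 9.94 in untreated cells on ground. The space arrays of Mfn2 were close together, and the treated and untreated ground ranges overlapped. Immt varied least, by 1.22-fold in all, a range wider than that of 4.6% of probe sets. Its values ran from 9.60 on ground nanoceria replicate 3 to 9.89 on the untreated space array. Within the pair of mitofusins and the pair of cristae genes values lay apart, as the ground nanoceria difference was -0.38 ± 0.18 for Mfn1 and 0.11 ± 0.17 for Mfn2, and -0.59 ± 0.15 for Apool and -0.01 ± 0.14 for Immt.

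**Figure D2:**
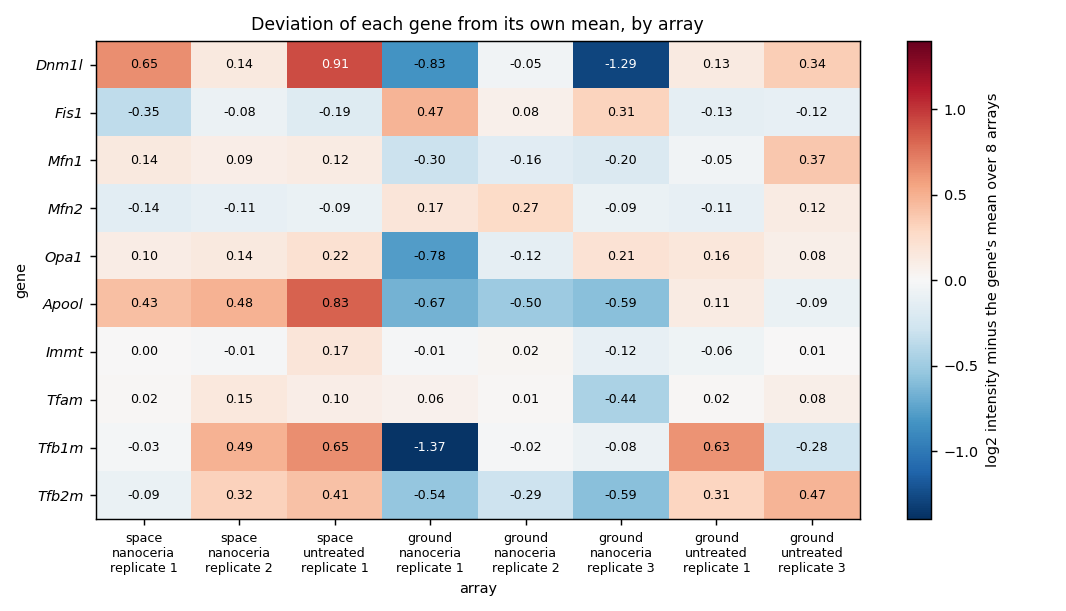
Log2 intensity of each gene (rows) on each array (columns) minus that gene's mean over the 8 arrays, printed in the cells and coloured from low (blue) to high (red). Ground nanoceria replicates 1 and 3 hold the deepest lows (Tfb1m at -1.37 and Dnm1l at -1.29). The untreated space array holds the highest value of Dnm1l, Opa1, Apool, Immt and Tfb1m, with the share over all probe sets not computed.

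Ground nanoceria replicate 1 was the lowest array for Mfn1, Opa1, Tfb1m and Apool, and ground nanoceria replicate 3 for Dnm1l, Tfam, Tfb2m and Immt. Mfn2 and Fis1 were lowest on space nanoceria replicate 1. The share of all probe sets with their lowest value on each array was not computed, so nothing is read from these lows. Mean log2 intensity over the 10 genes was 8.66 and 8.75 in nanoceria-treated cells in space, 8.90 in untreated cells in space, 8.21, 8.51 and 8.30 in nanoceria-treated cells on ground, and 8.69 and 8.68 in untreated cells on ground. The mean of the skeletal muscle markers was highest on the same 3 treated ground arrays, at 8.04, 7.75 and 8.13, and its part in these differences was not tested.

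Spaceflight was set against ground over both treatments with an additive fit of regime and treatment. Of the 10 genes, 8 were higher and 2 lower, with a median log2 difference of 0.23. The median of all probe sets was -0.04, and 41.3% of them were higher. After Apool and Dnm1l came Tfb1m, Tfb2m at 0.38 ± 0.17, Opa1 at 0.26 ± 0.21, Mfn1 at 0.20 ± 0.14, Tfam at 0.15 ± 0.15 and Immt at 0.09 ± 0.11. Fis1, at -0.35 ± 0.15, and Mfn2, at -0.19 ± 0.13, were the 2 genes on the other side. Without ground nanoceria replicate 1, Opa1 came to 0.09, and without ground nanoceria replicate 3, Tfam came to 0.05. Tfb2m came to 0.21 without space nanoceria replicate 2, Fis1 to -0.22 without space nanoceria replicate 1, and Immt to 0.03 without the untreated space array. Limma with Benjamini-Hochberg adjustment called 0 of the 10 genes and 0% of all probe sets at an adjusted p below 0.05. At an unadjusted p below 0.05, 2 of the 10 were higher (Dnm1l and Apool) and 0 lower, where 5.3% of all probe sets were higher and 4.26% lower. Space and ground arrays did not overlap for Apool alone, higher in space, against 1.97% of all probe sets higher and 3.14% lower. With unequal array weights the fit called 4 probe sets, Apool among them. Since the genes were chosen on this contrast, nothing is read from these shares.

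Within untreated cells, where space had 1 array, 7 of the 10 genes were higher and 3 lower, with a median of 0.07. Over all probe sets the median was -0.03, and 45.5% were higher. Beside Apool, Dnm1l lay at 0.68 ± 0.48, Tfb2m at 0.02 ± 0.25, Mfn1 at -0.04 ± 0.24 and Fis1 at -0.06 ± 0.24.

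Within nanoceria-treated cells, space minus ground had a median of 0.35 over the 10 genes and -0.05 over all probe sets. The differences not yet given were 0.72 ± 0.46 for Tfb1m, 0.58 ± 0.19 for Tfb2m, 0.36 ± 0.28 for Opa1, 0.34 ± 0.18 for Mfn1, 0.21 ± 0.19 for Tfam, 0.03 ± 0.14 for Immt and -0.24 ± 0.17 for Mfn2. Limma called 0 of the 10 genes and 0% of probe sets after adjustment. Before adjustment 3 of the 10 were higher (Dnm1l, Tfb2m and Apool) and 1 lower (Fis1), where the shares over all probe sets were 5.02% higher and 3.39% lower. The 2 space and 3 ground arrays did not overlap for 4 genes that were higher in space (Dnm1l, Mfn1, Tfb2m and Apool) and 2 that were lower (Mfn2 and Fis1), against 13.6% and 17.6% of all probe sets. Tfb2m depended on which space array was used, at 0.79 without space nanoceria replicate 1 and 0.38 without space nanoceria replicate 2. Without ground nanoceria replicate 1, Tfb1m came to 0.28 and Opa1 to 0.08, and without ground nanoceria replicate 3, Tfam came to 0.05 and Immt to -0.01.

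For nanoceria, the additive fit over both regimes put 8 of the 10 genes lower and 2 higher than in untreated cells. The median was -0.25, against 0.03 over all probe sets (56% higher). Dnm1l lay at -0.80 ± 0.28, Tfb2m at -0.66 ± 0.17, Tfb1m at -0.58 ± 0.35 and Apool at -0.52 ± 0.12. Opa1 at -0.26 ± 0.21, Mfn1 at -0.25 ± 0.14, Tfam at -0.11 ± 0.15 and Immt at -0.07 ± 0.11 followed, while Mfn2 at 0.06 ± 0.13 and Fis1 at 0.25 ± 0.15 were positive. Without ground nanoceria replicate 1, Opa1 came to -0.08 and Tfb1m to -0.30. Mfn1 came to -0.09 without ground untreated replicate 3, Tfam to -0.01 without ground nanoceria replicate 3, Immt to -0.01 without the untreated space array and Mfn2 to -0.02 without ground untreated replicate 1. After adjustment limma called 0 of the 10 genes and 0% of probe sets. Unadjusted, 3 of the 10 were lower with p below 0.05 (Dnm1l, Tfb2m and Apool) and 0 higher, where 5.86% of all probe sets were lower and 3.77% higher. Treated and untreated arrays overlapped for all 10 genes when regimes were pooled, and did not overlap for 2.47% of probe sets that were higher and 2.28% that were lower.

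On ground alone, nanoceria minus untreated had a median of -0.37 over the 10 genes and 0.04 over all probe sets. Dnm1l lay at -0.96 ± 0.36, beside the values given above for the other genes. The Dnm1l difference ran from -1.29 without ground nanoceria replicate 2 to -0.67 without ground nanoceria replicate 3. Adjustment left 0 of the 10 genes and 0% of probe sets. Before it, 3 of the 10 were lower (Dnm1l, Tfb2m and Apool) and 0 higher, against 6.57% and 4.42% of probe sets. Treated and untreated ground arrays did not overlap for Dnm1l, Mfn1, Tfb2m and Apool, all lower, and for Fis1, higher, where 12% of all probe sets were lower and 14.3% higher without overlap. Against all 5 other arrays at once, treated ground arrays were the lowest for the same 4 genes and the highest for Fis1, as for 6.86% and 6.79% of all probe sets. This comparison and that of space with ground in treated cells share the 3 treated ground arrays, so their values are not independent.

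In space, nanoceria minus untreated rested on 2 arrays against 1. All 10 differences were below 0, with a median of -0.13 against 0.01 over all probe sets (51.9% higher). All of these differences share the untreated space array, the highest array for Dnm1l, Opa1, Apool, Immt and Tfb1m. The share of all probe sets highest on that array was not computed, so nothing is read from these highs. The differences ran from -0.52 ± 0.48 for Dnm1l, -0.42 ± 0.62 for Tfb1m and -0.37 ± 0.20 for Apool to -0.03 ± 0.24 for Fis1 and -0.0009 ± 0.24 for Mfn1. The difference between the nanoceria effect in space and that on ground was fitted as an interaction. It was 0.56 ± 0.32 for Tfb2m, 0.44 ± 0.59 for Dnm1l, 0.38 ± 0.29 for Mfn1, 0.22 ± 0.25 for Apool and -0.44 ± 0.30 for Fis1. The median over the 10 genes was 0.23. Leaving out 1 array brought Dnm1l to 0.15 (ground nanoceria replicate 3), Mfn1 to 0.17 (ground untreated replicate 3), Apool to 0.12 (ground untreated replicate 1) and Tfb2m to 0.36 (space nanoceria replicate 2). Limma called 0 of the 10 genes and 0% of probe sets in that fit, with 545 probe sets at an unadjusted p below 0.05.

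**Figure D3:**
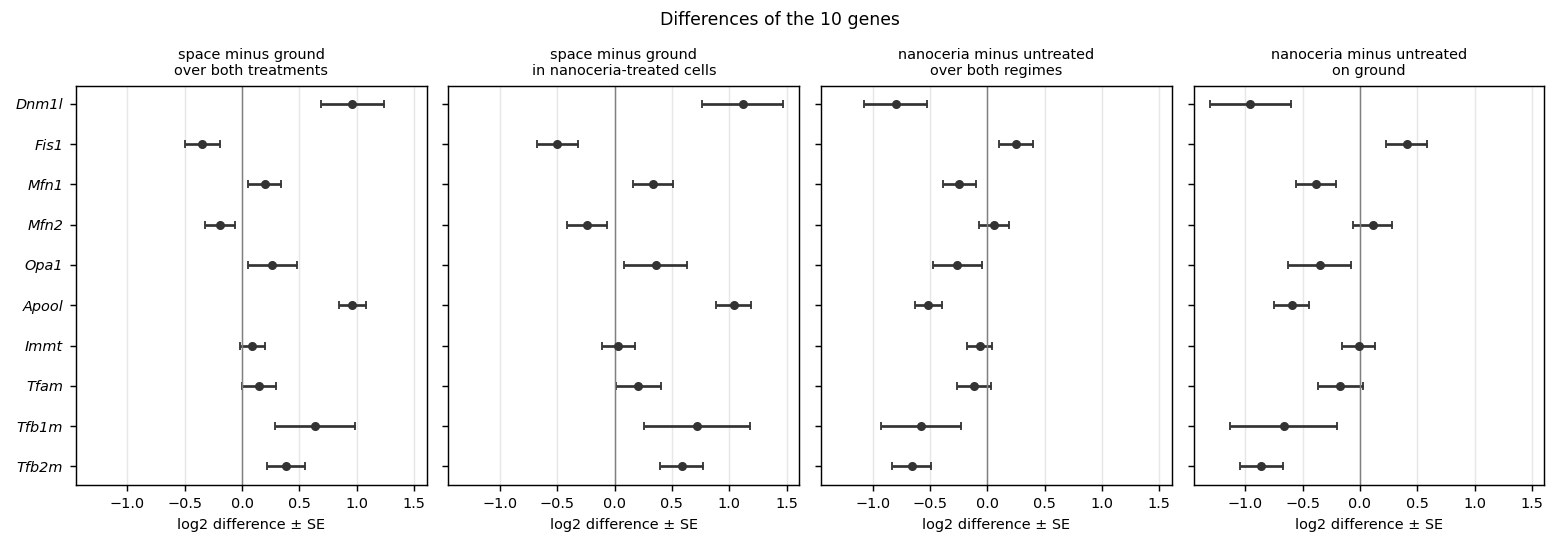
Log2 difference with its SE (horizontal axis) of the 10 genes (vertical axis) for space minus ground over both treatments and in treated cells, and for nanoceria minus untreated over both regimes and on ground. Apool and Dnm1l lie near 1 in both space comparisons, and Fis1 and Mfn2 lie opposite to most of the other genes.

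Likeness among genes was measured as the root mean square difference of log2 intensities over the 8 arrays, each gene centred on its own mean. Among all named probe sets, those nearest to Apool were Smarca2 at 0.15, Arhgap12 at 0.16 and Zfp709l1 at 0.18. Tmtc3 at 0.14, Slmap at 0.15 and Lysmd3 at 0.17 were nearest to Dnm1l. For Tfb2m they were Ptp4a1 at 0.11, Tfpi at 0.12 and Zfp639 at 0.12. Among the 10 genes themselves, Dnm1l lay nearest to Apool at 0.37, Apool to Tfb2m at 0.33 and Tfb2m to Mfn1 at 0.26. These 10 are part of all named probe sets, so such distances cannot be smaller than those above and nothing is read from their size. Immt was the nearest for Mfn1 at 0.19, for Mfn2 at 0.16 and for Tfam at 0.14, all genes of narrow range. Opa1 lay nearest to Mfn1 at 0.26, Fis1 to Mfn2 at 0.22, Tfb1m to Opa1 at 0.37 and Immt to Tfam at 0.14.

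Wider lists of mitochondrial genes were examined beside the 10, and 0 of their genes passed limma's adjusted p below 0.05 in either direction in any comparison (the smallest was adjusted p = 0.265, for Pnpt1 with nanoceria on ground). For the counts of higher and lower genes in each list, the share of all probe sets that were higher serves as the measure. It was 41.3% in space over both treatments and 56% with nanoceria over both regimes. Among fission adaptors and regulators (13 of 17 measured), 9 were higher and 4 lower in space over both treatments, with a median of 0.06. Mtfp1, an inner-membrane fission protein, differed by 0.64 ± 0.16, Slc25a46, an outer-membrane carrier relative, by 0.42 ± 0.14, and Mff, a receptor for the division GTPase, by 0.36 ± 0.18. For nanoceria over both regimes the list had 9 higher and 4 lower, with Mtfp1 at 0.36 ± 0.16, Slc25a46 at -0.51 ± 0.14 and the fission regulator Mtfr1 at -0.44 ± 0.20. At an unadjusted p below 0.05, 2 of the 13 were higher in space (Mtfp1 and Slc25a46), and 1 was higher and 1 lower with nanoceria. Over all probe sets the shares were 5.3% higher and 4.26% lower in space, and 3.77% higher and 5.86% lower with nanoceria.

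Fusion regulators and inner-membrane proteases (12 of 15 measured) had 2 higher and 10 lower in space, with a median of -0.16. Yme1l1, the protease gene whose product cuts Opa1, was one of the 2, at 0.93 ± 0.36, and it lay at -0.89 ± 0.36 with nanoceria. The prohibitin gene Phb2 differed by -0.37 ± 0.16 in space and 0.30 ± 0.16 with nanoceria, and the protease gene Afg3l2 by -0.58 ± 0.31 and -0.55 ± 0.31. Unadjusted, 1 of the 12 was higher and 1 lower in space, and 0 higher and 1 lower with nanoceria. The shares over all probe sets were 5.3% higher and 4.26% lower in space, and 3.77% higher and 5.86% lower with nanoceria. Cristae partners (13 of 16 measured) were balanced, with 6 higher and 7 lower in each of the 2 comparisons. Apoo, the paralogue of Apool in the same complex, differed by 0.47 ± 0.16 in space and -0.51 ± 0.16 with nanoceria. Samm50, of the outer-membrane assembly machinery, differed by -0.27 ± 0.16 and 0.44 ± 0.16, and Cox16, a respiratory-chain assembly gene, by 0.47 ± 0.29 and -0.54 ± 0.29. Unadjusted, 1 of these 13 was higher and 0 lower in space, and 1 higher and 1 lower with nanoceria, beside the same shares over all probe sets.

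Genes of mitochondrial transcription, replication and RNA maturation (22 of 22 measured) had 7 higher and 15 lower with nanoceria, with a median of -0.17, and 13 higher and 9 lower in space. Mterf3, a regulator of mitochondrial transcription, lay at -0.72 ± 0.19 with nanoceria and 0.44 ± 0.19 in space, the transfer RNA-processing gene Trmt10c at -0.38 ± 0.12 and 0.43 ± 0.12, and the RNA-degrading enzyme gene Pnpt1 at -0.96 ± 0.33 with nanoceria. Nsun4, which encodes a methyltransferase of mitochondrial ribosomal RNA like that of Tfb1m, differed by -0.42 ± 0.15 in space. At an unadjusted p below 0.05, 0 of the 22 were higher and 4 lower with nanoceria, where 3.77% of all probe sets were higher and 5.86% lower. In space 1 was higher and 1 lower, where 5.3% of all probe sets were higher and 4.26% lower.

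Nuclear regulators of mitochondrial biogenesis (11 of 12 measured) had 3 higher and 8 lower with nanoceria, with a median of -0.19. They included the coactivator gene Ppargc1a at -0.40 ± 0.20, Gabpa, which encodes the DNA-binding subunit of GABP, at -0.42 ± 0.22, and the coactivator gene Pprc1 at 0.17 ± 0.15. The log2 intensity of Ppargc1a was 5.84 on ground untreated replicate 1 and 4.74 to 5.16 on all other arrays. In space 4 of the 11 were higher and 7 lower, with Pprc1 at -0.40 ± 0.15, the kinase gene Prkaa1 at 0.51 ± 0.33 and the nuclear receptor gene Esrra at -0.18 ± 0.12. Unadjusted, 0 of the 11 were higher and 1 lower in space, and 0 passed with nanoceria. Over all probe sets 5.3% were higher and 4.26% lower in space, and 3.77% higher and 5.86% lower with nanoceria. Mitophagy genes (9 of 12 measured) had 4 higher and 5 lower in space. The receptor genes Bnip3 and Bnip3l differed by 1.90 ± 0.41 and 0.83 ± 0.32, and the cargo adaptor gene Sqstm1 by -0.57 ± 0.24. At an unadjusted p below 0.05, 2 of these 9 were higher and 2 lower in space, against 5.3% and 4.26% of all probe sets. The 2 lower were Sqstm1 and Phb2, and Phb2 is the same gene already counted in the fusion list. With nanoceria 5 were higher and 4 lower, and Fkbp8 lay at 0.35 ± 0.21 and Fundc1 at -0.44 ± 0.29, both receptor genes. None of the 26 symbols listed for genes of the mitochondrial genome was named on the array here, so transcripts made with Tfam and Tfb2m were not analysed here. Proliferation markers were carried as a measure of cell state, with Mki67 at 1.38 ± 0.58, Cenpf at 1.27 ± 0.85 and Pcna at 0.24 ± 0.17 in space, and Mcm2 at 0.69 ± 0.23, Aurka at 1.06 ± 0.43 and Cdc20 at 1.75 ± 0.76 with nanoceria. All 13 measured were higher with nanoceria, where 56% of all probe sets were higher. The low level on ground untreated replicate 3 enters these differences. Cdc20 was 6.27 there and 9.91 on ground untreated replicate 1, and Aurka 6.81 and 8.65.

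**Figure D4:**
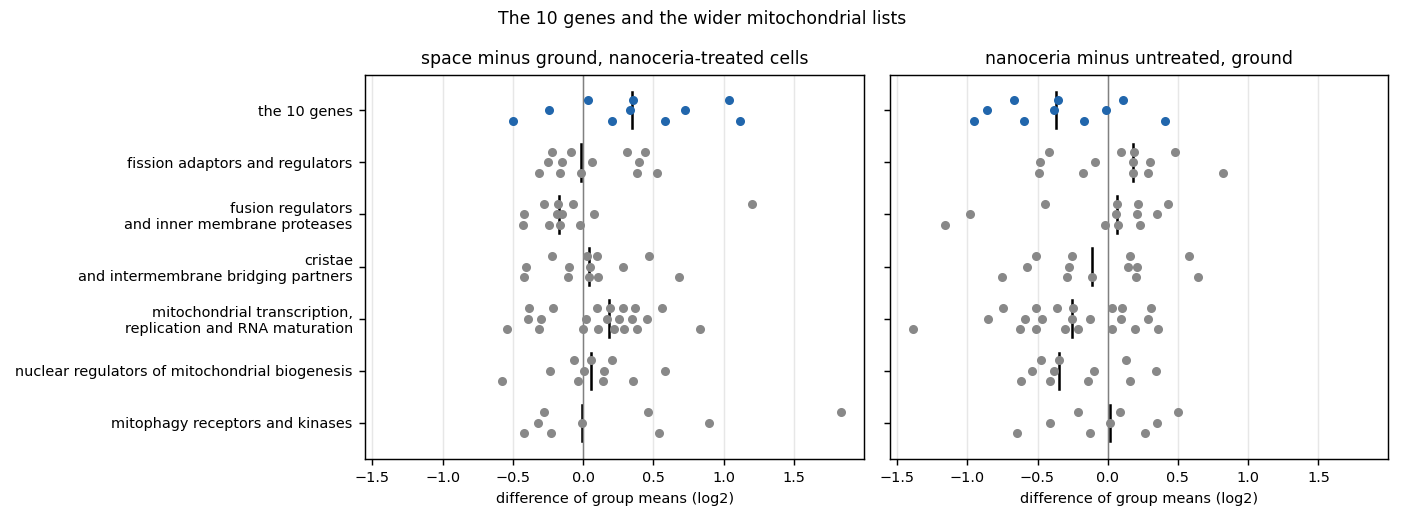
Difference of group means on the log2 scale (horizontal axis) for the 10 genes (blue) and for each wider mitochondrial list (grey), with 1 point per gene and a black bar at the list's median, for space minus ground in treated cells and nanoceria minus untreated on ground. The 10 genes have medians of 0.35 and -0.37, and every list has genes on both sides of 0.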

How the data were processed

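Total RNA (30 ng per sample) was measured on 8 rat Clariom S Pico arrays, 1 per sample, and grouped by sample title. The deposited table gives an intensity for every probe set on every array. RMA is the method named in the submitters' processing notes, and its version is not given in the sources used here. These deposited intensity values proved to be linear and above 0, and log2 was applied without a pseudocount. Of 23188 probe sets, 15049 had 1 symbol, 0 several and 8139 none, and the brightest stood for a symbol.

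All probe sets entered fits with limma 3.58.1 (R 4.3.3), and p-values were adjusted by Benjamini-Hochberg over the table (threshold 0.05). An additive fit of regime and treatment left 5 residual degrees of freedom, and a fit with 1 mean per group left 4. Median SEs were 0.17 for the additive fit and 0.21 for both comparisons with replicates on each side. The fits were tested on simulated data. The labels put ground cultures in separate hardware units and do not say whether replicates were independent preparations, so p-values measure only the spread among these samples, which may be technical. Untreated replicate 2 on ground was not analysed here.

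The 10 genes and the wider lists were chosen with earlier results of these data known. Named from each wider list were the 3 genes with the smallest p for space minus ground and for nanoceria minus untreated (additive fit), and 3 nearest patterns for Apool, Dnm1l and Tfb2m. The alternatives were cyclic loess, scaling to equal medians, a filter keeping the brighter 66.7% of probe sets, a trended robust variance, array weights, the replicate number as a block, and leaving out each array.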

Additional observations from a re-analysis of the deposited data

How the results depend on the processing

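The median of the 10 genes kept its direction in all 5 comparisons under every alternative. Leaving out 1 array in turn gave medians of 0.18 to 0.35 for space minus ground over both treatments, -0.37 to -0.17 for nanoceria minus untreated over both regimes, -0.48 to -0.24 for nanoceria on ground, 0.29 to 0.44 for space minus ground in treated cells and 0.0808 to 0.29 for the difference of the nanoceria effect between regimes, lowest without ground nanoceria replicate 1. Probe sets with an adjusted p below 0.05 numbered 0 except for 4 under array weights for space minus ground (3231 at an unadjusted p below 0.05, against 2217). They were 0 to 1 when an array was left out there (1 without ground untreated replicate 3 or ground nanoceria replicate 2), and 0 to 167 for nanoceria on ground, where the 167 came without ground untreated replicate 1 and held 0 of the 10 genes. The replicate block kept every adjusted count at 0 and gave member medians of 0.34, -0.29, -0.37, 0.42 and 0.16 in the order above. It gave 1284 probe sets at an unadjusted p below 0.05 for space minus ground, 1059 against 1950 in treated cells and 340 against 545 for the difference of effects. Same-numbered arrays of different groups had deviations from their group means that correlated at -0.35 to -0.01. In groups of 2 arrays these deviations mirror each other, so the correlations cannot show whether the numbers pair the arrays. The brighter share alone gave 362 for the difference of effects, and array weights gave 3065 in treated cells. Signs changed for Immt with nanoceria on ground (equal medians, array weights, and without ground untreated replicate 3 or ground nanoceria replicate 3) and in treated cells (without ground nanoceria replicate 3), for Mfn2 with nanoceria (without ground untreated replicate 1), and for Tfb1m, Opa1 and Tfam in the difference of effects. The cause of these changes was not tested. All 10 genes passed the filter, and averaging probe sets was not run because each gene had 1. Without the untreated space array the difference of effects could not be fitted. The number of arrays and the lack of a detection measure limit all values.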

Other observations

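Other values stood out in the wider lists and were chosen after they were seen. Pnpt1, which encodes a mitochondrial RNA-degrading enzyme, had log2 intensities of 4.22, 5.04 and 5.41 in nanoceria-treated cells on ground, against 6.52 and 6.04 in untreated cells on ground, with 5.97 and 5.46 in nanoceria-treated cells in space and 5.92 in untreated cells in space. Its ground groups did not overlap, where 12% of all probe sets were lower without overlap. The Pnpt1 difference on ground was -1.39 ± 0.36 (limma, adjusted p = 0.265). Its lowest value, 4.22 on ground nanoceria replicate 1, lay inside the range of the macrophage marker Ptprc, 4.03 to 4.62. Without a detection call, that value could not be told from background. Ground nanoceria replicate 3 had the lowest value of the cristae genes Apoo, at 7.84, and Chchd3, at 8.55, where the other 7 arrays had at least 8.31 and 9.16, and of the Opa1-cutting protease gene Yme1l1, at 7.81, where the other 7 had at least 8.61. Some other genes of the cristae list were not lowest on that array. Samm50 was 9.73 there and 9.21 on ground untreated replicate 1, and Mtx1 was 10.79 there and 10.51 on the untreated space array. Ground nanoceria replicate 3 also had the lowest Dnm1l and Tfam values. The share of all probe sets lowest on it was not computed, so nothing is read from these lows.

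Bnip3, the hypoxia-responsive mitophagy receptor gene, read 11.50 and 12.00 in nanoceria-treated cells in space and 11.91 in untreated cells in space. It read 9.06, 11.08 and 9.59 in nanoceria-treated cells on ground and 9.57 and 10.21 in untreated cells on ground, so ground nanoceria replicate 2 lay nearest to the space arrays. Dnm1l was also nearest to the space arrays in that replicate among the treated ground arrays, at 9.35 against 8.57 and 8.11, whereas Apool was not set apart there, at 6.83 against 6.67 and 6.75. Over all probe sets, too, that replicate was the treated ground array most like the space arrays. Its correlation with space nanoceria replicate 2 was 0.9868, against 0.9747 and 0.9724 for ground nanoceria replicates 1 and 3. This nearness was therefore not particular to Bnip3 and Dnm1l.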
